A study of Mus musculus with 6 samples.

Results

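Integrins and laminins are the receptors and the ligands through which many cells attach to basement membranes and to the surrounding matrix. The rule for the genes described here used their names and no measured value. It took every mouse gene whose symbol is Itga or Itgb followed by a number, or Lama, Lamb or Lamc followed by a number, and that had an array probe set assigned to it and to no other gene. The rule gave 29 genes, out of 18193 genes on the arrays in all: 11 integrin alpha subunits, 8 integrin beta subunits and 10 laminin chains. Itga11 was not analysed here. Tongues were taken at embryonic day 14.5 from C57BL/6J mice, and each genotype was represented by 3 arrays. All embryos carried the floxed Tgfbr2 alleles (Tgfbr2 fl/fl), also the controls, whose titles call them wildtype. The mutants carried Wnt1-Cre in addition, a recombinase driven in the neural crest, so that the TGF-beta type II receptor gene was to be deleted in neural crest descendants such as the tongue connective tissue, and not in the mesoderm-derived muscle fibres. The sex of the embryos is labelled as not determined, and no label says whether arrays came from separate litters, so p-values measure only the spread between these samples.

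An integrin is a pair of an alpha and a beta subunit, and the pairing sets which matrix protein it binds. Itgb1 pairs with most of the alpha subunits listed here, Itgb4 pairs with Itga6 in the hemidesmosomes that anchor epithelium, and Itgb3, Itgb5, Itgb6 and Itgb8 pair with Itgav, whose dimers bind RGD sequences and, for some of them, the latent form of TGF-beta. A laminin is a trimer of an alpha, a beta and a gamma chain and forms the sheet of the basement membrane. The muscle laminin (Lama2, Lamb1, Lamc1) surrounds muscle fibres, the epithelial laminin, with the chains Lama3 and Lamb3, lies under stratified epithelium, and laminins with Lama4 or Lama5 lie around vessels and under epithelia.

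Values are log2 expression from RMA, the authors' normalization, and a difference of 1 on this scale is a doubling. Each gene was read by its brightest probe set. Genes in the lowest 25% (mean under 5.17) were left out of the test, which removed Itga10 and Itgb2 and left 27 of the 29 genes. Mutant array 1 stood apart from the others over all tested genes, with correlations of 0.966 to 0.978 against 0.984 to 0.998 for every pair without it. Tgfbr2 itself differed by -0.18 (standard error 0.18, adjusted p = 0.642, limma), and no source used here says whether its probes lie in the deleted part, so it does not check the labels. All 12 markers of skeletal muscle and all 12 of epithelium were above the filter value on every array, so the samples, described in the labels both as tongue and as tongue mesenchyme, held RNA of epithelium too. In bulk samples fewer cells of a type and less RNA per cell cannot be told apart.

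Between mutants and controls, 2 of the 27 tested genes passed an adjusted p of 0.05 in limma, Itgb8 and Lama3, and both rose. Over all 13645 tested genes 2.14% passed, 1.32% higher and 0.821% lower in the mutants. With the replicate number as a block, 7 of the 27 passed, 3 higher (Itgb3, Itgb8 and Lama3) and 4 lower (Itga1, Itga4, Itga9 and Lamc1), against 3.59% of all genes. No label says what the replicate numbers stand for. They were taken as pairs because of correlations in these same values, and all results with the block depend on this. In 12 of the 27 genes (44.4%) the mutant and control values did not overlap, 6 higher and 6 lower in the mutants, against 25.1% of all genes (13.6% higher, 11.5% lower). The median log2 difference of the 27 genes was -0.014, beside 0.016 for all genes, and 14 (51.9%) were negative and 13 positive, where 46.6% of all genes were negative. The class medians were -0.36 for the 10 tested alpha subunits, 0.094 for the 7 tested beta subunits and -0.18 for the 10 laminin chains. Without mutant array 1 they were -0.19, 0.14 and, for the laminin chains, practically 0 (3.28e-05), so that the negative laminin median rests on that array.

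The promoters of Itgb8 and Itga4 are shown because these genes gave the highest difference that passed the test and the lowest difference of all the tested integrins. They are the 250 bases before the transcription start in RefSeq (GRCm38.p6), 5′ to 3′ on the strand of the gene, and capitals mark CAGAC or its reverse complement GTCTG, the Smad box. The Itgb8 sequence is chr12:119238277-119238526 on the minus strand and the Itga4 sequence is chr2:79255176-79255425 on the plus strand.
Itgb8: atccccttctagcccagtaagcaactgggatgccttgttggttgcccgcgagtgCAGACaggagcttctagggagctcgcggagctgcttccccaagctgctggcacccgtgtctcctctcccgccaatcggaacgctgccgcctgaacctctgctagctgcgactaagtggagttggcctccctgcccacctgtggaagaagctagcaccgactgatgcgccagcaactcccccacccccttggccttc
Itga4: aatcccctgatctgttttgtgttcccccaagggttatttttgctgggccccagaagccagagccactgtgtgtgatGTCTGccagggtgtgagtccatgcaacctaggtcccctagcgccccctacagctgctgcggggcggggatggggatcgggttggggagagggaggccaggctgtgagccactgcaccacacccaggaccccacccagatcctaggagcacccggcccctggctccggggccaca
Each holds the Smad box 1 time. Of the 29 genes 19 matched an entry of the RefSeq promoter table, with 22 start sites between them. The Smad box was found on either strand in 14 of these 22 windows (63.6%), and in 42.2% of all 32851 windows of the table, each searched over the same 250 bases before the start. The GC box GGGCGG was in 8 of the 22 (36.4%), beside 32.7% of all windows. A match is a description of these letters and not a binding site.

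Among the beta subunits Itgb8 rose, and Itgb3 had the largest positive difference without passing the test. Itgb8, which with Itgav binds latent TGF-beta and takes part in its activation, read 9.27, 8.87 and 9.45 on the mutant arrays, in the order of their numbers, and 8.12, 8.05 and 8.11 on the control arrays. The lowest mutant lay above the highest control, and the controls lay close together. Itgb8 rose by 1.10 (standard error 0.15, 95% interval 0.76 to 1.45), a 2.15-fold difference, with an adjusted p of 0.0172. Its size hardly moved when an array was left out (0.98 to 1.27), but the call was lost without control array 1, 2 or 3 (adjusted p = 0.0636, 0.108 and 0.102). Itgb3, which pairs with Itgav on many cells and with Itga2b on platelets, gave 6.53, 7.87 and 7.87 in the mutants and 5.98, 6.09 and 6.21 in the controls. Mutant arrays 2 and 3 were far above the controls and mutant array 1 only slightly. Its log2 difference was 1.33 (standard error 0.34, adjusted p = 0.114). It was 1.78 without mutant array 1 (adjusted p = 0.000662), and with the replicate block the adjusted p was 0.0373.

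The other beta subunits differed less. Itgb4, the hemidesmosome subunit, gave 7.25, 7.47 and 7.08 in the mutants and 6.84, 6.89 and 6.88 in the controls, a difference of 0.39 (adjusted p = 0.148) with no overlap. Itgb6, an epithelial partner of Itgav, was the beta subunit on the other side: 5.46, 5.32 and 5.72 in the mutants and 5.98, 5.93 and 5.90 in the controls. This difference of -0.44 had an adjusted p of 0.122, and the groups did not overlap. Itgb1 gave 10.29, 10.48 and 10.45 in the mutants and 10.30, 10.43 and 10.38 in the controls, groups that overlapped. The interval of its difference, from -0.18 to 0.25, excludes a change as large as that of Itgb8. The differences of Itgb5 and Itgb7, the latter a partner of Itga4 on lymphocytes, were 0.094 and 0.086. Itgb2, the leukocyte subunit, lay under the filter value with means of 5.15 in the mutants and 4.97 in the controls. Itgav, whose symbol has a letter and not a number, was 11.86 ± 0.17 in the mutants and 11.79 ± 0.076 in the controls (SD, n = 3 per genotype), a difference of 0.072 (adjusted p = 0.776). The leukocyte alpha subunits Itgae, Itgal, Itgam and Itgax were all under the filter value, and Itgad was not analysed here.

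**Figure D1:**
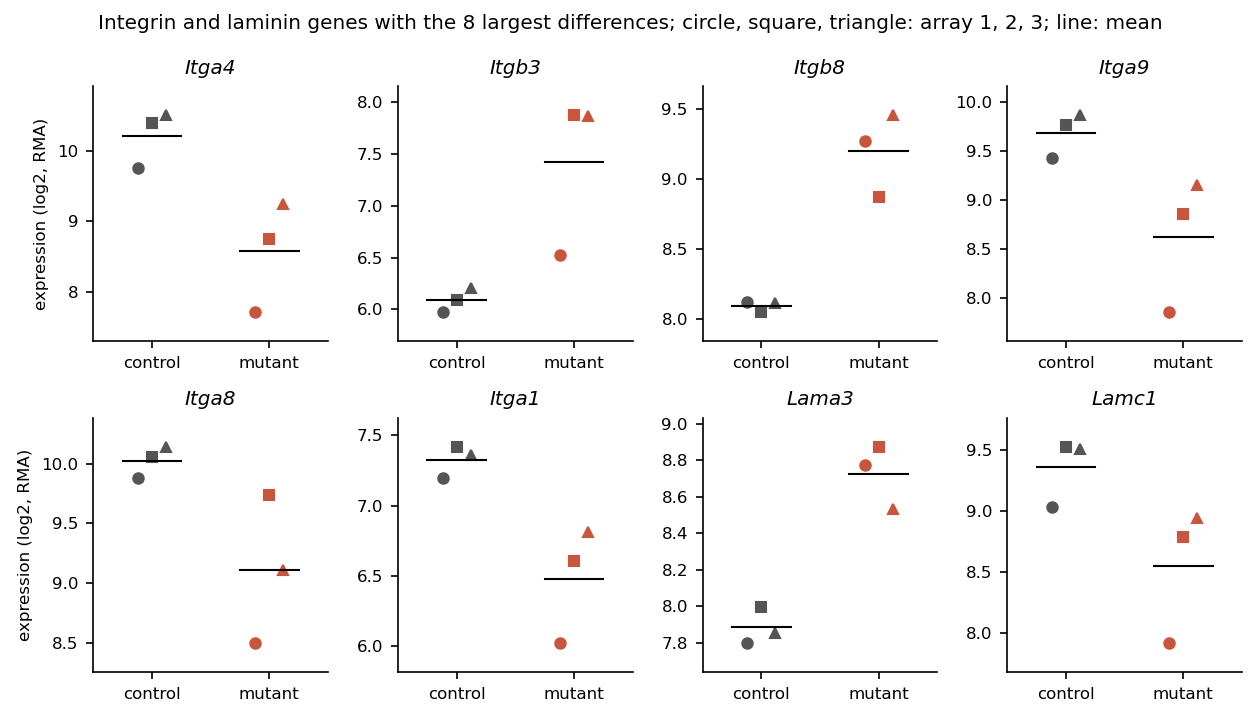
Log2 expression (RMA) in each control and mutant array for the 8 integrin and laminin genes with the largest differences; circles, squares and triangles are arrays 1, 2 and 3, and lines are group means, with an axis of its own for each gene. None of the 8 has overlapping groups; Itgb3, Itgb8 and Lama3 lie higher in the mutants, and in the other 5 genes mutant array 1 is the lowest array.

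Among the alpha subunits the larger differences were all negative: 5 of the 10 tested had an unadjusted p under 0.05, all 5 of them lower in the mutants (16.9% of all genes had such a p in either direction), and 0 passed after adjustment in limma. Itga4, the receptor subunit for fibronectin and Vcam1, gave 7.72, 8.75 and 9.25 in the mutants and 9.75, 10.39 and 10.50 in the controls. All mutants lay below all controls, and in each genotype array 1 was the lowest. The log2 difference was -1.64 (standard error 0.38, 95% interval -2.53 to -0.75), with an adjusted p of 0.0891, 0.00674 with the replicate block and 0.0417 without mutant array 1, where the difference was -1.21. Itga9, a receptor subunit for tenascin C that is related in sequence to Itga4, gave 7.86, 8.85 and 9.15 in the mutants and 9.43, 9.77 and 9.86 in the controls. Its difference of -1.06 (standard error 0.31) had an adjusted p of 0.151, and of 0.0280 with the block, and it shrank to -0.68 without mutant array 1.

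Itga8, the subunit that binds nephronectin, gave 8.50, 9.73 and 9.11 in the mutants and 9.88, 10.05 and 10.14 in the controls. Mutant array 2 came close to the controls without reaching them. The difference was -0.91 (standard error 0.28, adjusted p = 0.164, 0.0641 with the block), and -0.60 without mutant array 1. Itga1, a collagen receptor subunit, gave 6.02, 6.61 and 6.81 in the mutants and 7.20, 7.42 and 7.36 in the controls. Its difference of -0.84 (standard error 0.20) had an adjusted p of 0.0906, 0.0302 with the block and 0.0233 without mutant array 1, where it was -0.61. Itga7, the laminin receptor subunit of muscle fibres, gave 5.75, 6.10 and 6.52 in the mutants and 6.30, 6.85 and 6.86 in the controls. The groups overlapped, since mutant array 3 lay above control array 1, and the difference was -0.55 (adjusted p = 0.283), and -0.36 without mutant array 1.

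The values of the remaining alpha subunits overlapped between the genotypes. Itga6 gave 10.42, 10.96 and 10.77 in the mutants and 10.86, 10.90 and 10.88 in the controls, a difference of -0.17 (95% interval -0.50 to 0.16). This laminin receptor subunit of epithelium has a second probe set above the filter value that gave -0.56, also with overlap, and the average of both gave -0.37 (adjusted p = 0.263). Itga5, the fibronectin receptor subunit, gave 6.15, 6.27 and 6.13 in the mutants and 6.18, 6.21 and 6.20 in the controls. Its interval ran from -0.21 to 0.18, so a difference of the size measured for Itga4 lies outside it. Itga2, Itga3 and Itga2b, the platelet subunit, differed by 0.018, 0.15 and 0.21, with adjusted p from 0.429 to 0.946 and overlapping groups. Itga10, a collagen receptor subunit of cartilage, was under the filter value in both genotypes.

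**Figure D2:**
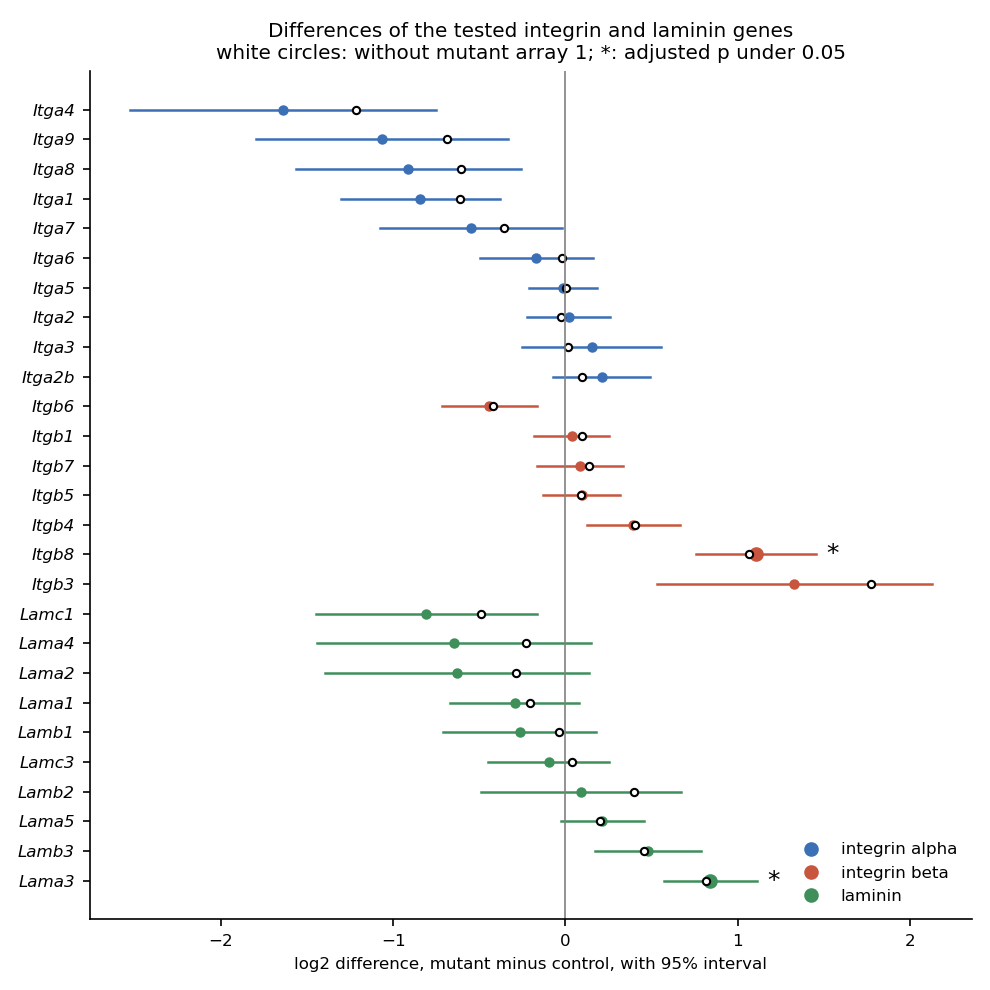
Log2 difference (mutant minus control) of the 27 tested integrin and laminin genes, filled points with 95% intervals from limma, coloured by class; white circles give the difference without mutant array 1. Only Itgb8 and Lama3 carry the star for an adjusted p under 0.05; without mutant array 1 the difference of Itga4 moves from -1.64 to -1.21 and that of Itgb3 from 1.33 to 1.78.

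Among the laminin chains, Lama3 was the one that passed the test. The differences of Lama3, Lamb3 and Lama5 were positive. Those of Lama2, Lamb1 and Lamc1, the chains of the muscle laminin, were negative, but Lamb1 and Lamc1 also belong to other laminins. Lama3, the alpha chain of the epithelial laminin, gave 8.77, 8.87 and 8.53 in the mutants and 7.80, 7.998 and 7.86 in the controls, so that all mutants were above all controls. It rose by 0.84 (standard error 0.12, 95% interval 0.57 to 1.11), 1.79-fold, with an adjusted p of 0.0184. That call was lost without mutant array 2 (adjusted p = 0.0671), without control array 1, 2 or 3 (0.0720, 0.0892 and 0.116) and, barely, when its probe sets were averaged (0.46, adjusted p = 0.0509). Lamb3, its partner chain, gave 8.16, 8.21 and 7.97 in the mutants and 7.401, 7.68 and 7.82 in the controls. The groups did not overlap, but mutant array 3 and control array 3 were only a little apart, and the difference of 0.48 had an adjusted p of 0.130. Lama5, of the laminins under many epithelia, gave 7.60, 7.59 and 7.54 in the mutants and 7.18, 7.42 and 7.48 in the controls, a difference of 0.22 (adjusted p = 0.346).

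The chains of the muscle laminin and the vascular chain Lama4 had negative differences, and none passed in the fit without the block. Lamc1, the gamma chain of most laminins, gave 7.92, 8.78 and 8.95 in the mutants and 9.04, 9.53 and 9.51 in the controls. All mutants were lower than all controls, with mutant array 3 near control array 1, and the difference was -0.81 (standard error 0.27, adjusted p = 0.202, 0.0294 with the block, -0.49 without mutant array 1). Lama2, the muscle alpha chain, gave 8.36, 9.16 and 9.61 in the mutants and 9.21, 9.87 and 9.94 in the controls. These groups overlapped, and the difference of -0.63 (adjusted p = 0.383, 0.0556 with the block) was -0.29 without mutant array 1. Lama4 gave 9.06, 10.24 and 10.42 in the mutants and 10.26, 10.66 and 10.73 in the controls, a difference of -0.65 (adjusted p = 0.386) that was -0.23 without mutant array 1. Lamb1, the beta chain shared by most of these trimers, gave 11.65, 12.25 and 12.40 in the mutants and 12.27, 12.37 and 12.46 in the controls, and differed by -0.27 (adjusted p = 0.520), but by -0.040 without mutant array 1. Lama4 and Lamb1 had mutant array 1 as the outlying low value. Lama1, Lamb2 and Lamc3 differed by -0.29, 0.092 and -0.098, with overlapping groups; the 0.092 of Lamb2 was 0.40 without mutant array 1.

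**Figure D3:**
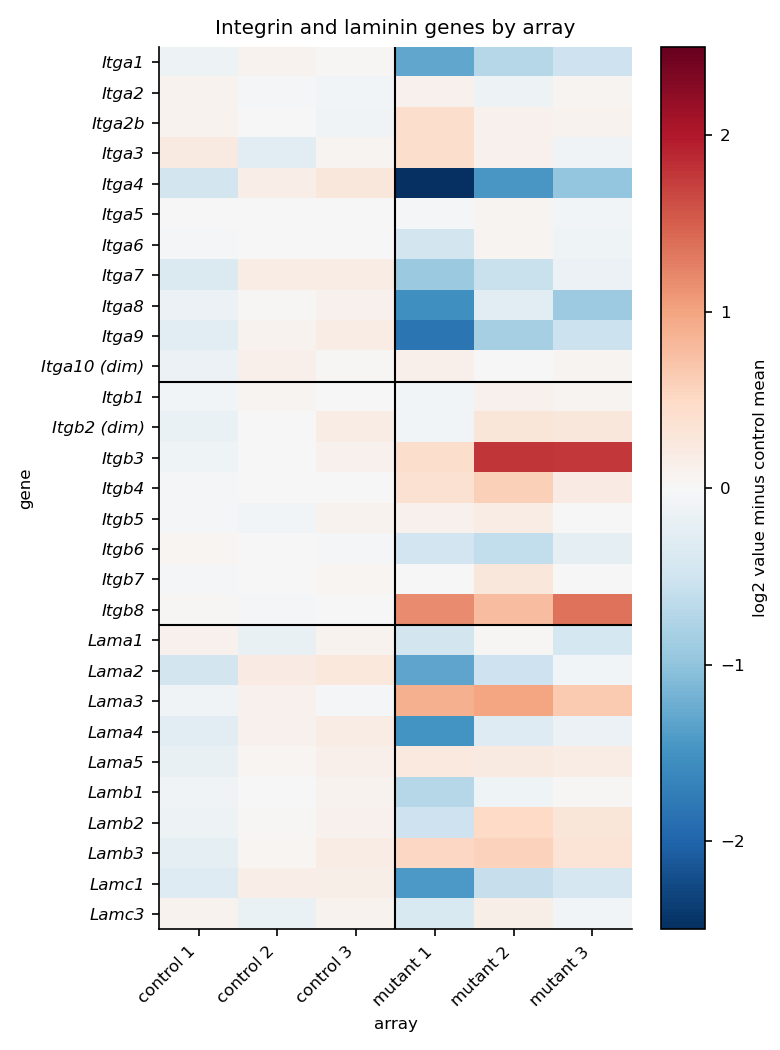
Log2 value minus the control mean for all 29 measured integrin and laminin genes (rows) in the 6 arrays (columns), blue for lower and red for higher; dim marks the 2 genes under the filter value. Mutant array 1 has the deepest blue in Itga4, Itga9, Itga8, Lama4 and Lamc1, whereas Itgb8 and Lama3 are red in all 3 mutants.

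The spread among the mutants was wide for these genes. In 25 of the 27 the standard deviation over the mutants exceeded that over the controls (76.7% of all tested genes), with medians of 0.28 in the mutants and 0.11 in the controls. Over all tested genes these medians were 0.17 and 0.084, so the controls too spread more in these genes. Of the 14 genes with a negative difference, mutant array 1 was the lowest of all 6 arrays in 12. Of the 13 with a positive difference, mutant array 2 was the highest in 8 and mutant array 1 in 4. The 27 deviations from the control means had a median of -0.37 on mutant array 1, of 0.076 on mutant array 2 and of -0.064 on mutant array 3. Without mutant array 1, 5 of the 27 genes passed, against 4.91% of all genes: Itgb3, Itgb8 and Lama3 higher and Itga1 and Itga4 lower.

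Several of these genes had further probe sets. There were 62 in all for the 29 genes, 17 of which had more than 1. Of the 33 probe sets that were not the brightest of their gene, 20 lay above the filter value, and 18 of these had the sign of the brightest one. The other 2 belonged to Itgb1, whose differences were -0.13 and -0.014 beside 0.037 for the brightest. For Itga4, 3 further probe sets above the filter value gave -1.36, -1.41 and -1.87, and the last, with a mean far under it, gave 0.18. Further probe sets of Itga8 and Lamc1 gave -0.87 and -0.96, and those of Itga9 gave -1.03 and -0.25. The second probe set of Lama4 gave -1.12. Itgb3 and Lama3 rest on 1 probe set each: their dimmer ones gave 0.16 and 0.074, the latter under the filter value. Itgb8 has a single probe set. The brightest probe sets of Itga5 and Lamb1 carry the suffix for probes that can also read related transcripts.

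**Figure D4:**
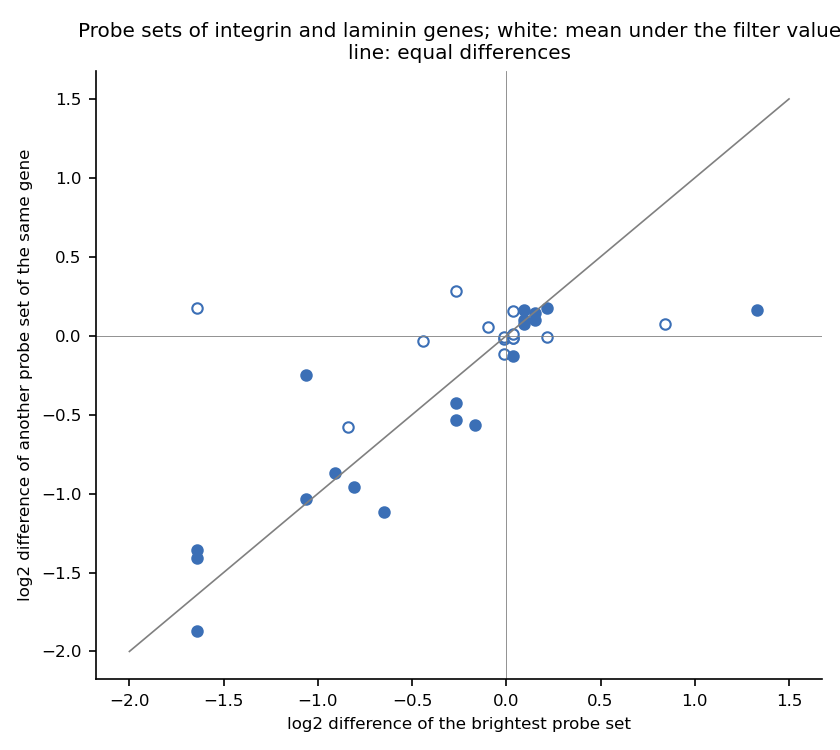
Log2 difference (mutant minus control) of the brightest probe set of a gene, horizontal, against that of each further probe set of the same gene, vertical, 33 points; white points have a mean under 5.17 and the line marks equal differences. The points of Itga4, Itga8, Itga9 and Lamc1 lie in the lower left, with 1 white point of Itga4 at 0.18, and the further probe set of Itgb3 lies at 0.16, far below the line.

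The matrix ligands of these integrins changed in both directions. Of the 19 tested ligand genes 2 rose and 2 fell, where 2.14% of all genes passed. Vtn, encoding vitronectin, a ligand of Itgb3 and Itgb5 dimers, rose by 1.30 (standard error 0.15, adjusted p = 0.0105). Its control mean of 4.94 lay under the filter value, where RMA compresses differences. Vtn therefore entered the test only through the mutant arrays, where its mean was 6.24. Edil3, a secreted RGD protein that binds Itgav dimers, rose by 0.72 (adjusted p = 0.0317). Tnc, encoding tenascin C, a ligand of Itga9 and of Itgav dimers, fell by 1.94 (standard error 0.33, adjusted p = 0.0317). Thbs2, a thrombospondin gene, fell by 1.39 (adjusted p = 0.0177). With the replicate block 7 passed (3.59% of all genes), with Fn1 (-1.11, adjusted p = 0.0125), Tgfbi (-1.62, 0.0211) and Tgfb3 (-0.56, 0.0472) besides. Without mutant array 1 the differences of Fn1 and Tgfb3 were -0.66 and -0.34. Leaving out control array 2 or control array 3 ended all 4 calls, leaving out mutant array 2 ended 3 (Vtn passed), leaving out mutant array 3 ended that of Edil3 (adjusted p = 0.0670) and leaving out control array 1 ended 2 (Vtn and Thbs2 passed). A filter on the lowest 50% of genes removed Vtn and Edil3, and averaging the probe sets left Thbs2 as the 1 gene that passed. The median of the list was -0.21 (0.016 for all genes), and -0.054 without mutant array 1.

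In the basement membrane list, 2 of 18 tested genes passed, against 2.14% of all genes, and both rose. Col4a5, a type IV collagen chain, read 9.07 ± 0.098 in the controls and 10.23 ± 0.16 in the mutants (SD, n = 3 each; limma adjusted p = 0.00740), and Col17a1, the hemidesmosome collagen, 9.32 ± 0.042 and 10.27 ± 0.27 (adjusted p = 0.0249). Col4a6, which forms a network with Col4a5, differed by 0.82 (adjusted p = 0.114, 0.0284 without mutant array 1), and Frem2 passed as well without that array (0.40). The vascular and general chains Col4a1 and Col4a2 differed by -0.69 and -0.62 (adjusted p = 0.281 and 0.423), and by -0.35 and -0.17 without mutant array 1. Npnt, encoding nephronectin, the ligand of Itga8, gave -0.45 (adjusted p = 0.1199) with groups that did not overlap. The list's median was -0.041 (0.016 for all genes), and 0.13 without mutant array 1, where 11 of the 18 were positive. The count was 1 without control array 1 and 0 without control array 2 or 3, where Col4a5 lost the call too (adjusted p = 0.0555 and 0.0545).

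No gene passed among 26 tested genes of the adhesion complexes that link integrins to actin (limma). An unadjusted p under 0.05 was found in 5 of the 26, all lower, where 16.9% of all genes had one in either direction. Tln1, encoding talin 1, which activates integrins, gave -0.52 (adjusted p = 0.0954), Itgb1bp2, encoding the muscle integrin-binding protein melusin, -0.43 (0.186), Parvb, a parvin gene, -0.58 (0.225; -0.33 without mutant array 1) and Ilk, the integrin-linked kinase gene, -0.32 (0.274). The median was -0.20 (0.016 for all genes), and -0.013 without mutant array 1. Of 14 tested genes of the dystrophin-glycoprotein complex, the other laminin receptor of muscle, 0 passed (limma). An unadjusted p under 0.05 was found in 3 of the 14, beside 16.9% of all genes. Sgce, a sarcoglycan gene expressed in many tissues, gave 0.40 (adjusted p = 0.103), and the muscle sarcoglycan genes Sgcb and Sgca gave -0.42 and -0.35 (0.177 and 0.224). Dag1, encoding dystroglycan, which binds laminin, gave -0.34 (0.315). The median of this list was -0.18 (0.016 for all genes), and -0.12 without mutant array 1, where Dag1 differed by -0.19.

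**Figure D5:**
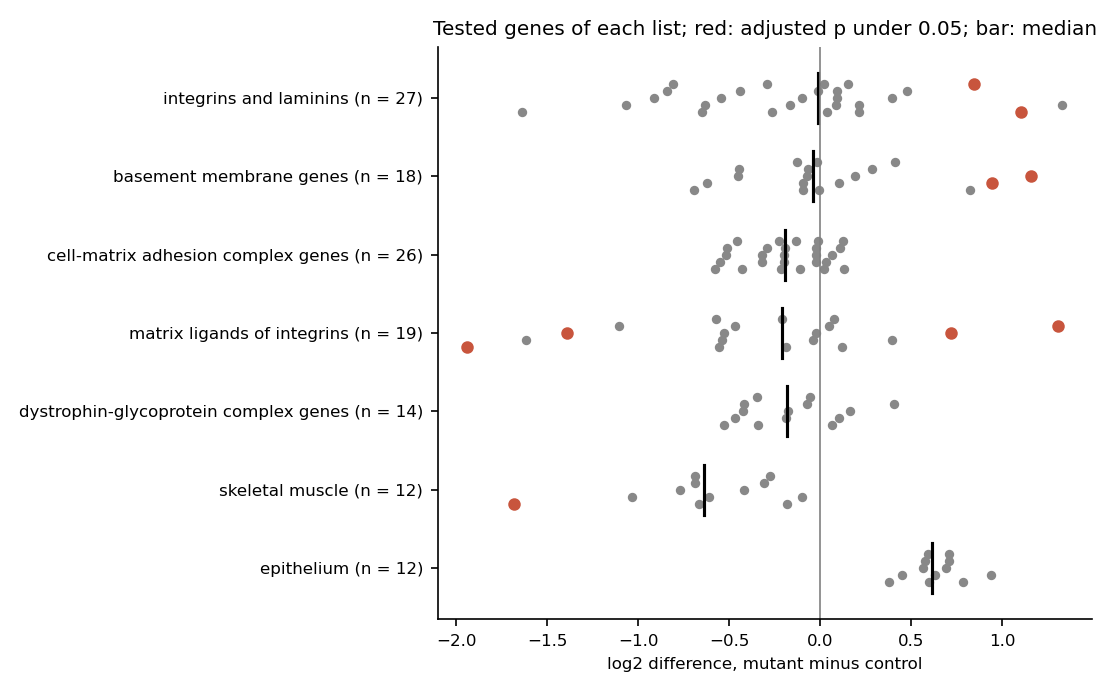
Log2 difference (mutant minus control) of the tested integrin and laminin genes, of 4 related lists and of 2 marker lists; each point is a gene, red where the adjusted p is under 0.05, and bars are medians. The integrin and laminin genes spread to both sides of 0, from -1.64 for Itga4 to 1.33 for Itgb3, whereas all 12 muscle markers lie below 0 and all 12 epithelial markers above it.

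Markers of other cell types moved beside these genes. For comparison, 2.14% of all tested genes passed in limma and 3.59% with the replicate block, and 16.9% had an unadjusted p under 0.05. All 12 epithelial markers had positive differences, with a median of 0.61 (0.40 without mutant array 1). Of these 0 passed in limma, 9 had an unadjusted p under 0.05, and 3 passed with the replicate block (Epcam, Krt14 and Esrp1). Their summed level, as log2, was 14.59 to 15.27 in the mutants and 14.24 to 14.34 in the controls. That sum was highest in mutant array 1 (15.27) and, among the controls, in control array 1. Lama3, Lamb3, Itgb4 and Col17a1 were higher in the mutants too. Lama5 also had a positive difference (0.22), while Itgb6 and Itga6, also named above as epithelial, had negative ones (-0.44 and -0.17). Lama3, Lamb3, Itgb4 and Col17a1 were highest in mutant array 2 and lowest in control array 1. Of the epithelial markers, Trp63 was also highest in mutant array 2, and the others in mutant array 1. Krt5 and Krt15 were also lowest in control array 1, and the other epithelial markers in another control array. The part of the epithelial markers in the values of Lama3, Lamb3, Itgb4 and Col17a1 was not tested. All 12 muscle markers had negative differences (median -0.64, -0.39 without mutant array 1). Of these 1 passed, and 5 with the replicate block. Their summed levels were 15.29 to 15.75 in the mutants and 15.82 to 16.17 in the controls. Itga7, Lama2 and Itgb1bp2 also had negative differences, and the part of the muscle markers in these was not tested. Of 9 endothelial markers 7 were negative and 0 passed in limma, with 1 at an unadjusted p under 0.05. Their summed level was 10.57 in mutant array 1, 11.09 and 11.18 in the other mutants and 11.18 to 11.29 in the controls, beside a low Lama4 in mutant array 1. Of the 5 tested megakaryocyte and platelet markers 1 passed, Pf4, which fell by 1.07 (adjusted p = 0.0250), while the other 4 differed by at most 0.14, and the sums were 8.57 to 8.88 in the mutants and 8.995 to 9.26 in the controls. Schwann cell markers were positive in 5 of 6 and neuronal markers in 6 of 7 (0 and 1 passed in limma, 1 and 2 with the replicate block, and 4 of each had an unadjusted p under 0.05), with sums of 11.54 to 12.04 against 11.64 to 11.69, and of 11.45 to 11.65 against 10.69 to 11.17. The Schwann sums of mutant arrays 1 and 2 (11.54 and 11.62) lay below all controls. The median deviation of the Schwann markers from the control means was positive in all 3 mutants (0.16, 0.40 and 0.51). Itgb8 was higher in all 3 mutants, and the part of the Schwann markers in its increase was not tested. The neuronal sums were higher in all 3 mutants, like Itgb8, and their part in its increase was not tested. Of 11 leukocyte markers 10 were positive and 3 passed (sums of 11.81 to 11.84 against 11.26 to 11.52). Smooth muscle and pericyte markers (3 of 8 positive, 0 passed, 1 with an unadjusted p under 0.05) had sums of 13.53 to 14.07 and 13.90 to 14.09, and neural crest mesenchyme markers (7 of 11 positive, 2 passed) of 14.28 to 14.51 and 14.06 to 14.12. The cartilage and red cell lists, with 4 tested genes each, had 1 and 0 that passed in limma, and the red cell list had 1 at an unadjusted p under 0.05. Their sums were 9.87 to 10.12 against 9.52 to 9.86 for cartilage and 10.19 to 10.77 against 10.15 to 11.07 for red cells. No marker had a value of 0, which RMA does not give.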

How the data were processed

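Total RNA of 6 embryonic mouse tongues was hybridised to Affymetrix arrays. The deposited log2 values come from RMA, named without a version in the submitters' processing notes. RMA subtracts background, equalises the arrays' distributions and summarises each probe set. It compresses differences of dim probe sets. Arrays have no read depth, and their number limits the precision. Of 45101 probe sets, 34945 have 1 gene symbol in the platform annotation, 932 several and 9160 none listed, and 64 are controls; Entrez identifiers matched to RefSeq (GRCm38.p6) changed 0 symbols. The brightest probe set stood for each of 18193 genes, and 13645 were tested with limma 3.58.1 in R 4.3.3 (lmFit, eBayes, 2-sided) with Benjamini-Hochberg adjustment over all of them. Group labels come from the titles and genotypes.

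The genes and lists were chosen with earlier results of these data known. Values in every array are given for genes past the threshold, for the 8 largest differences and for named integrin pairs and laminin trimers; of the 5 related lists, genes past the threshold or up to 4 with the smallest p; Col4a6, Frem2, Col4a1, Col4a2, Npnt, Fn1, Tgfbi and Tgfb3 were added after their values were seen. The code was tested on simulated data. Alternatives were other filters, probe set summaries, scalings, variance models, array weights, the replicate block and each array left out. Titles number the arrays of both genotypes from 1 to 3. Over the tested genes, mutant and control arrays of the same number deviated together (correlations of 0.309, 0.105 and 0.206, each over 0.1), so the numbers were taken to pair them. The pairing rests on the titles and these values. Arrays of different numbers were not compared in this way, and no label says what the numbers stand for. The results with the replicate block depend on this pairing. Figures were drawn with matplotlib 3.10.9.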

Additional observations from a re-analysis of the deposited data

How the results depend on the processing

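The 2 integrin and laminin calls were 9 with array quality weights, 7 with the replicate block, 4 when each probe set was tested separately and 4 at an adjusted p under 0.1, and between 0 and 5 with an array left out (0 without control array 1, 2 or 3); with averaged probe sets they were Itga4 and Itgb8. Over all genes the 292 calls became 151 under a filter on the lowest 50%, 1034 with array quality weights, 490 with the replicate block (276 of the 292 among them), 549 at an adjusted p under 0.1, and 16 (without control array 2) to 670 (without mutant array 1) with an array left out. The 2 basement membrane calls became 6 with array quality weights and 0 to 4 with an array left out. The 4 ligand calls became 2 under a filter on the lowest 50%, 1 with averaged probe sets, 7 with the replicate block and 0 to 5 with an array left out. Among the adhesion complex genes 1, Tln1, passed with array quality weights and 1 at an adjusted p under 0.1. The dystrophin complex had 0 calls in limma under every alternative run, and the replicate block changed no call in the basement membrane, adhesion and dystrophin lists. The median of the integrin and laminin genes stayed between -0.13 and 0.037. Tgfbr2 turned sign: its difference lay between -0.30 and 0.014 with an array left out. So did genes near 0 when an array was left out, Itga2 (-0.026 to 0.092, and -0.052 with quantile normalization), Itga5 (-0.057 to 0.014), Itgb7 (-0.012 to 0.14), Lamb2 (-0.11 to 0.40) and Lamc3 (-0.22 to 0.040, and 0.052 with array quality weights). The causes were not tested, except that a stricter filter tests fewer genes and an array left out leaves fewer samples.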
